A study of Gallus gallus with 8 samples.

Results

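B cell follicle genes are a set of 8 chicken genes known from B lymphocytes and from the follicles in which those cells gather: PAX5, EBF1, BCL6, VPREB3, CD79B, BLK, CXCR5 and CXCL13L2. They were picked by symbol in a table of gene counts from chicken trachea, and 7 of the 8 had a row among 26296 genes. CXCL13L2, which encodes a chicken form of the follicle chemokine CXCL13, was not analysed here. The trachea came from Gallus gallus aged 42 days. Exposed birds breathed hydrogen sulfide (H2S), an irritant gas of poultry houses, in a chamber whose level was held between 3.5 and 4.5 mg/kg for weeks 0 to 3 and then between 19.5 and 20.5 mg/kg for weeks 4 to 6. Control birds lived in another chamber that received no H2S. The sources used here do not give the strain or sex of the birds, nor whether a library holds RNA of 1 bird or of several.

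The comparison rests on 1 H2S library and 1 control library, both numbered 3, with total counts of 20839798 (H2S) and 18875586 (control). There is no replicate, so no test between conditions was possible, and chamber, bird and gas cannot be told apart. Levels are given as CPM, counts scaled to a common library size, after TMM scaling, which corrects for differences in library composition. Each ratio is the level in the H2S library over that in the control library, and the intervals at 95% cover counting error only. A gene was called measured with at least 20 counts in 1 library, which 15268 genes were. Their median ratio was 0.9995. Transcript lengths were not used, so levels are compared between libraries and not between genes. In whole trachea, a larger number of cells of one type cannot be told apart from more RNA in each cell.

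A B cell follicle is a cluster of B lymphocytes held together by chemokines of the CXCL13 type, which stromal cells release and which draw in cells that carry the receptor CXCR5. After meeting antigen, B cells of a follicle can form a germinal centre, where they multiply and are selected by how well they bind it, and where the repressor BCL6 keeps them from turning into plasma cells. PAX5 and EBF1 establish and hold B cell identity, and PAX5 is shut down when a cell becomes an antibody-secreting plasma cell. The trachea of chickens has lymphoid tissue in its mucosa that can hold such clusters.

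The H2S library had more transcript of PAX5, VPREB3 and CXCR5 than the control library, by 4.26-fold, 8.25-fold and 4.67-fold. The other 4 measured members lay within 2-fold, with CD79B at 1.60, BCL6 at 1.52, EBF1 at 1.14 and BLK at 0.784. Thus 3 of the 7 were at least 2-fold higher, where 4.71% of all measured genes were, and 0 were at least 2-fold lower, where 3.71% of all measured genes were. For the same 3 genes the whole counting interval lay above 2, as it did for 2.06% of measured genes. The median log2 ratio of the 7 was 0.68, and their range was -0.35 to 3.04. The members were chosen with these ratios known, so the count describes them and does not set them apart from other genes.

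**Figure D1:**
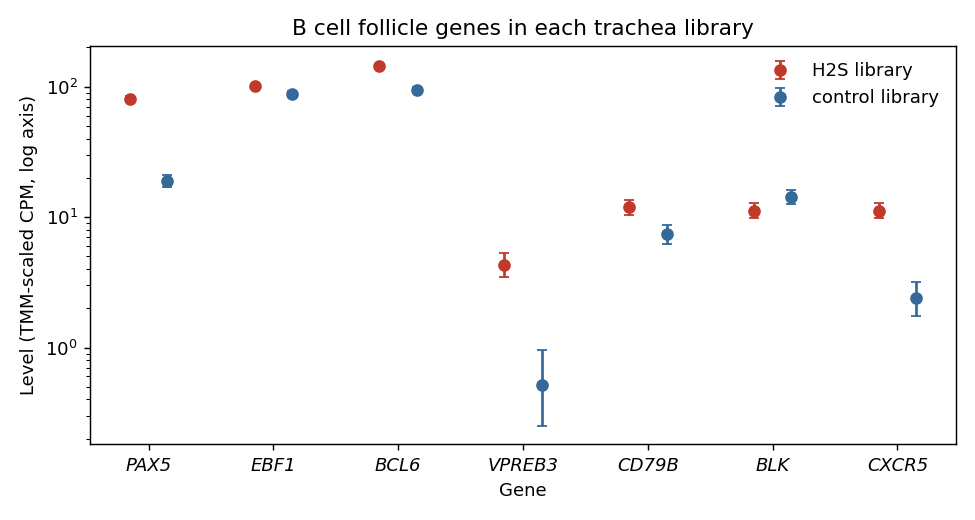
Level of each B cell follicle gene in the H2S library (red, left of each pair) and in the control library (blue), in TMM-scaled CPM on a log axis, with 95% Poisson counting intervals. PAX5, VPREB3 and CXCR5 are widely apart between the libraries, while the EBF1 points are close and BLK is lower in the H2S library.

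Among the transcription factors, PAX5 stood apart from the other two. PAX5 had 1645 counts in H2S trachea and 362 counts in control trachea, or 80.3 CPM (76.5 to 84.3) in the H2S library against 18.8 CPM (17.0 to 20.9) in the control one. Its ratio of 4.26 had a counting interval of 3.80 to 4.79, and 1.02% of measured genes had a ratio as high or higher. EBF1, which acts with PAX5 to open the B cell programme in mouse and is also used by fibroblasts and fat cells, had 2072 counts in H2S trachea and 1702 in control trachea. That is 101 CPM (96.9 to 106) in the H2S library against 88.6 CPM (84.5 to 92.9) in the control one, a ratio of 1.14 (1.07 to 1.22), and 29.8% of measured genes had one at least as high. BCL6, the repressor of germinal centre B cells, which many non-lymphoid cells also make, had 2946 counts in H2S trachea and 1812 in control trachea. Its level was 144 CPM (139 to 149) in the H2S library against 94.3 CPM (90.0 to 98.8) in the control one, a ratio of 1.52 (1.44 to 1.62). EBF1 and BCL6 had ratios nearer to 1 than PAX5. Whether their use outside the B lineage has a part in this was not tested.

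The genes linked to the B cell receptor, VPREB3, CD79B and BLK, went different ways. VPREB3 encodes a small immunoglobulin-like protein that in human and mouse B cells binds newly made antibody chains before they leave the cell interior. It had 88 counts in H2S trachea and 10 in control trachea, or 4.30 CPM (3.45 to 5.29) in the H2S library against 0.521 CPM (0.250 to 0.957) in the control one. Its ratio of 8.25 was the highest of the 7, and the 10 counts of the control library leave a wide interval of 4.28 to 17.8. It counted as measured through the H2S library alone, and 0.354% of measured genes had a ratio as high or higher. CD79B encodes a signalling chain of the receptor itself. It had 244 counts in H2S trachea and 143 in control trachea, or 11.9 CPM (10.5 to 13.5) in the H2S library against 7.45 CPM (6.27 to 8.77) in the control one, a ratio of 1.60 (1.30 to 1.98). BLK, a SRC-family kinase that works downstream of the receptor in mammals, was the single member with a ratio below 1. It had 229 counts in H2S trachea and 274 in control trachea, or 11.2 CPM (9.78 to 12.7) in the H2S library against 14.3 CPM (12.6 to 16.1) in the control one, a ratio of 0.784 (0.655 to 0.938). Summed over VPREB3, CD79B and BLK, there were 561 counts in H2S trachea and 427 in control trachea, a ratio of 1.23 (1.08 to 1.40).

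CXCR5, the receptor that leads B cells and follicular helper T cells into follicles, had 229 counts in H2S trachea and 46 in control trachea. Its level was 11.2 CPM (9.78 to 12.7) in the H2S library against 2.39 CPM (1.75 to 3.19) in the control one. The ratio of 4.67 had a counting interval of 3.39 to 6.56 and overlapped that of PAX5, and 0.910% of measured genes had a ratio as high or higher. On the ligand side, CXCL13L3, another chicken gene of the CXCL13 type, had 123 counts in H2S trachea and 51 in control trachea, a ratio of 2.26 (1.62 to 3.20). The CXCL13-type genes lie side by side in RefSeq gene order, and how reads were shared among them is not known.

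**Figure D2:**
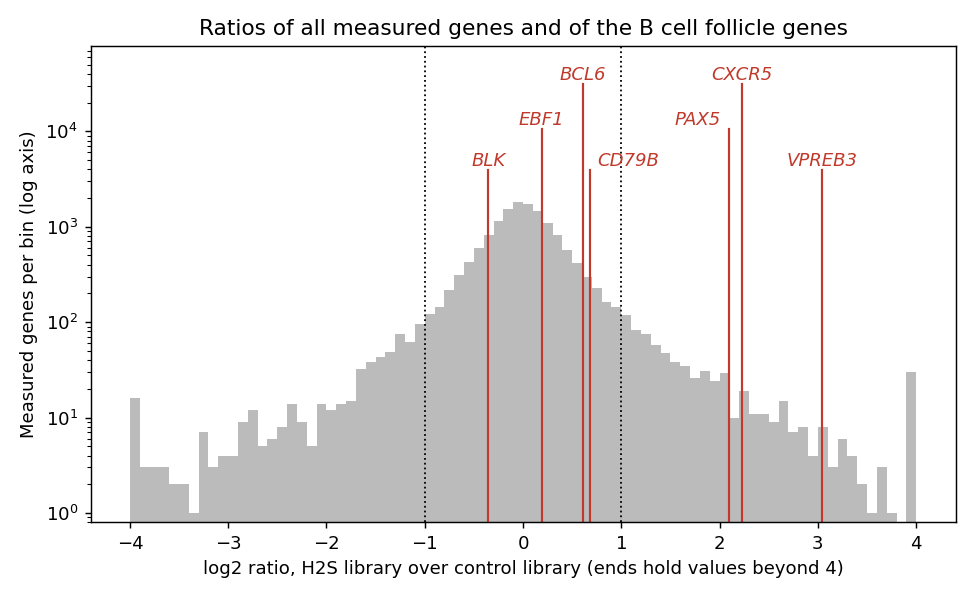
Histogram of the log2 ratio of the H2S library over the control library for 15268 measured genes, with the gene count per bin on a log axis, red lines at the B cell follicle genes and dotted lines at a 2-fold difference. VPREB3, CXCR5 and PAX5 lie in the upper tail, and BLK, EBF1, BCL6 and CD79B lie inside the 2-fold lines.

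Ratios of 2 genes within a library do not depend on how libraries are scaled, so they show directly how the proportions of the members compared. For PAX5 and CXCR5 no shift was detected, with 7.18 PAX5 counts per CXCR5 count in H2S trachea and 7.87 in control trachea, a quotient of 0.913 (0.637 to 1.29). For CD79B and BCL6 the interval held 1 as well, with a quotient of 1.05 (0.843 to 1.31). PAX5 counts per CD79B count were 6.74 in H2S trachea and 2.53 in control trachea, a quotient of 2.66 (2.09 to 3.39). Per BLK count, PAX5 had 7.18 in H2S trachea and 1.32 in control trachea, the quotient being 5.44 (4.39 to 6.74). In all, 17 of the 21 pairs had an interval that left out 1, and 4 pairs had one that held it. Those that held it included PAX5 with VPREB3 (0.516, 0.237 to 1.01) and VPREB3 with CXCR5 (1.77, 0.832 to 4.10). The pairs share genes, and their intervals cover counting error only. Why the proportions differed between the libraries was not tested.

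The surface protein Bu-1 is a classical marker of chicken B cells that some macrophages also carry. It is listed as LOC396098, matched through a RefSeq synonym, and served as a yardstick outside the set. LOC396098 had 823 counts in H2S trachea and 227 in control trachea, or 40.2 CPM in the H2S library against 11.8 CPM in the control one, a ratio of 3.40 (2.93 to 3.96). Per Bu-1 count, PAX5 was at 1.999 in H2S trachea and 1.59 in control trachea, a quotient of 1.25 (1.04 to 1.52), and CXCR5 had a quotient of 1.37 (0.960 to 1.99). VPREB3 had more counts per Bu-1 count in the H2S library, with a quotient of 2.43 (1.23 to 5.32). CD79B, BLK, EBF1 and BCL6 had fewer, with quotients of 0.471 (0.363 to 0.612), 0.231 (0.182 to 0.292), 0.336 (0.285 to 0.395) and 0.448 (0.381 to 0.526). The yardstick itself is a high one, since the median ratio of its list of B cell surface and signalling genes was 1.21. Any gene with a ratio below that of Bu-1 has a quotient below 1 by arithmetic.

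The genes beside each member on its chromosome had median ratios of 0.873 to 1.09, with some single neighbours beyond 2-fold. Gene order was read from RefSeq names of the GRCg7b assembly, with the 5 nearest measured genes on each side where there were as many. PAX5 is a gene of the Z sex chromosome, and its 6 measured neighbours had ratios of 0.680 to 1.08, with the mitotic kinase MELK lowest. The 10 neighbours of CXCR5 ran from 0.509 to 1.82 and those of CD79B from 0.645 to 1.44. The ratios ran from 0.379 to 2.45 for the neighbours of BLK, 0.699 to 2.25 for those of EBF1 and 0.313 to 3.05 for those of BCL6. VPREB3 lies close to the antibody light chain gene IGLL1, which had 17755 counts in H2S trachea and 70789 in control trachea, a ratio of 0.235. VPREB3 and IGLL1, neighbours in gene order, thus differed in opposite directions. The remaining 9 neighbours of VPREB3 had ratios up to 1.23. The sources used here do not say whether counting used strand, so reads of genes that overlap a member cannot be told apart from its own.

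**Figure D3:**
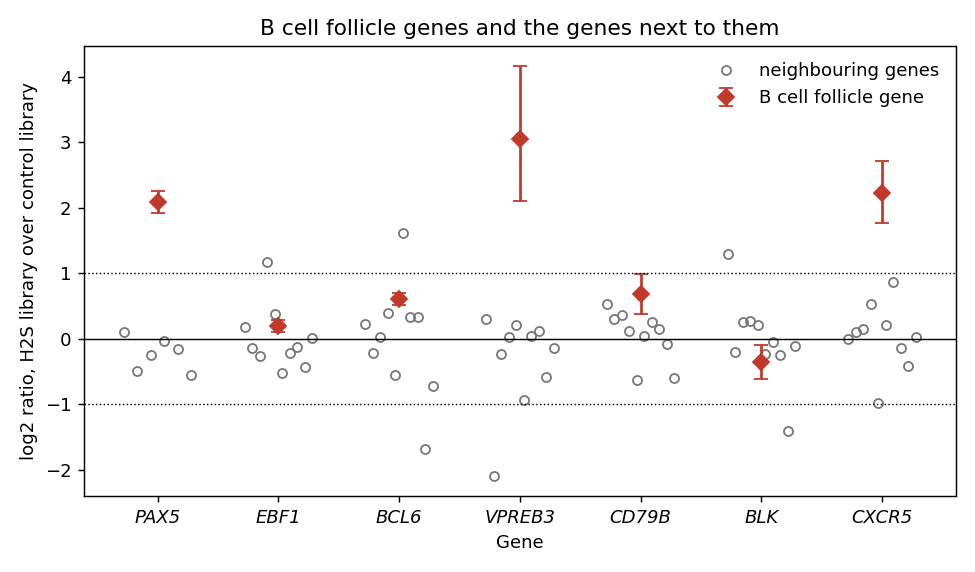
log2 ratio of the H2S library over the control library for each B cell follicle gene (red diamonds, 95% counting interval) and for up to 5 measured genes on each side of it in RefSeq order (open circles), with dotted lines at a 2-fold difference. PAX5, VPREB3, CXCR5 and CD79B lie above all their neighbours, and the lowest circle in the VPREB3 column is IGLL1.

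Other genes of germinal centre B cells ranged from near 1 to over 2-fold higher. Of 11 measured genes in a germinal centre list, 3 were higher by 2-fold or more and 0 lower by as much, with a median log2 ratio of 0.22. For this and every other list, the shares to set beside such counts are those of all measured genes, 4.71% higher and 3.71% lower. RGS13, a brake on chemokine receptor signalling, had 35 counts in H2S trachea and 12 in control trachea, a ratio of 2.74 (1.39 to 5.79). It counted as measured through the H2S library alone. With a count minimum of 50, or with intervals wholly past 2-fold, 2 genes of the list were higher. MYBL1 and LMO2, nuclear factors that mark germinal centre cells in human, had ratios of 2.25 and 2.23. At the other end CCND3 was at 0.884, MEF2B at 0.938, EZH2 at 1.05 and S1PR2 at 1.06. UNG, a DNA repair enzyme, had 0 counts in both libraries. Lack of its transcript cannot be told apart here from reads that were not assigned to it.

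In a list of B cell surface proteins and receptor signalling genes, the highest ratios belonged to surface proteins. Of its 20 measured genes, 2 were higher by 2-fold or more and 0 lower by as much, with a median log2 ratio of 0.28. Over all measured genes, 4.71% were higher and 3.71% lower by as much, so a count of 2 says little about the list. The 2 were Bu-1 and CD72, an inhibitory co-receptor with 329 counts in H2S trachea and 80 in control trachea, a ratio of 3.86 (3.01 to 4.99). The receptor for the survival factor BAFF, TNFRSF13C, had 47 counts in H2S trachea and 28 in control trachea, a ratio of 1.57 (0.966 to 2.61), an interval that holds 1 at this depth. CD40, through which T cells help B cells, had a ratio of 1.46 (1.22 to 1.75). The kinase LYN was at 0.938, VAV3 at 0.858, the phosphatase PTPN6 at 0.819 and the adaptor BANK1 at 0.645. CD79A, CR2 and CD22 were not analysed here.

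The other B lineage factors stayed within 2-fold. Of 12 measured B lineage transcription factors outside the set, 0 were beyond 2-fold in either direction, and the median log2 ratio was 0.14. LEF1 had a ratio of 1.62, IKZF3 1.46, IRF8 1.22 and BACH2 1.16, while TCF3, FOXP1, IKZF1 and ETS1 lay between 0.943 and 0.967. Most of these factors are made by T cells, myeloid cells or stroma as well. The part of those cells in the ratios was not tested.

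Genes of lymphoid chemokines and stroma were mixed. Of 17 measured genes in a list that adds follicular dendritic cells, 4 were higher by 2-fold or more and 0 lower by as much, with a median log2 ratio of 0.15. The 4 were CXCL13L3, CCL19, VCAM1 and FCER2. CCL19, the chemokine of T cell zones, had 692 counts in H2S trachea and 119 in control trachea, a ratio of 5.45 (4.48 to 6.68). Its receptor CCR7 had a ratio of 1.09. VCAM1, an adhesion protein of follicular dendritic cells and activated vessels, was at 2.57 (2.43 to 2.72), and FCER2, which in mammals is found on B cells and follicular dendritic cells, was at 2.94 (2.49 to 3.49). The survival factor gene TNFSF13B, which encodes BAFF, had a ratio of 0.776 (0.670 to 0.898), and the receptors CXCR4 and GPR183, which position B cells around follicles in mouse, were at 0.667 and 0.645.

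Genes of follicular helper T cells, which share CXCR5 and BCL6 with the set, were mixed. Of 10 measured genes, 1 was higher by 2-fold or more and 0 lower by as much, with a median log2 ratio of 0.19. With 4.71% of all measured genes higher by as much, a count of 1 says little about the list. The one was CD40LG, the ligand of CD40, from 43 counts in H2S trachea and 18 in control trachea, a ratio of 2.24 (1.27 to 4.13). CD40LG reached the count minimum in the H2S library alone. With a count minimum of 50 the median turned to -0.17 and CD40LG dropped out, and its interval is not wholly past 2-fold. Ratios above 1 were found for 6 of the 10. Besides CD40LG they included BTLA at 1.49 (1.25 to 1.79), IL6ST at 1.30 (1.25 to 1.36) and PDCD1 at 1.26 (0.760 to 2.11). At the low end, SH2D1A, IL21R, ICOS and CD28 had ratios of 0.572, 0.597, 0.654 and 0.752. IL21 had 3 counts in H2S trachea and 4 in control trachea, too few to compare. Over 12 measured T cell markers the median log2 ratio was -0.26, with CD6 the 1 gene lower by 2-fold or more and 0 higher by as much. CD6 reached the count minimum in the control library alone, with 11 counts in H2S trachea and 30 in control trachea. CD3E was at 0.676, CD8A at 0.636 and CD4 at 0.977. The 2 genes above 1 were TCF7 at 1.32 and CD8B at 1.29 (0.815 to 2.05), the latter with an interval that holds 1.

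Most plasma cell genes had ratios below 1, unlike PAX5, VPREB3 and CXCR5. Of 11 measured genes, 0 were higher by 2-fold or more and 4 lower by as much, with a median log2 ratio of -0.70. The list also holds PIGR, an antibody receptor of epithelial cells, and its ratio of 0.617 is that median. The 4 were IGJ, IGLL1, IRF4 and TNFRSF13B, and PRDM1, the factor that shuts PAX5 down, had a ratio of 0.612 (0.543 to 0.689). MZB1 and SDC1 were the 2 genes above 1, at 1.47 and 1.28. The PAX5 count per IGJ count was 0.145 in H2S trachea and 0.00685 in control trachea, a quotient of 21.1 (18.8 to 23.7). Antibody chain genes such as IGLL1 have close relatives in the genome, which makes the count of any single one uncertain.

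**Figure D4:**
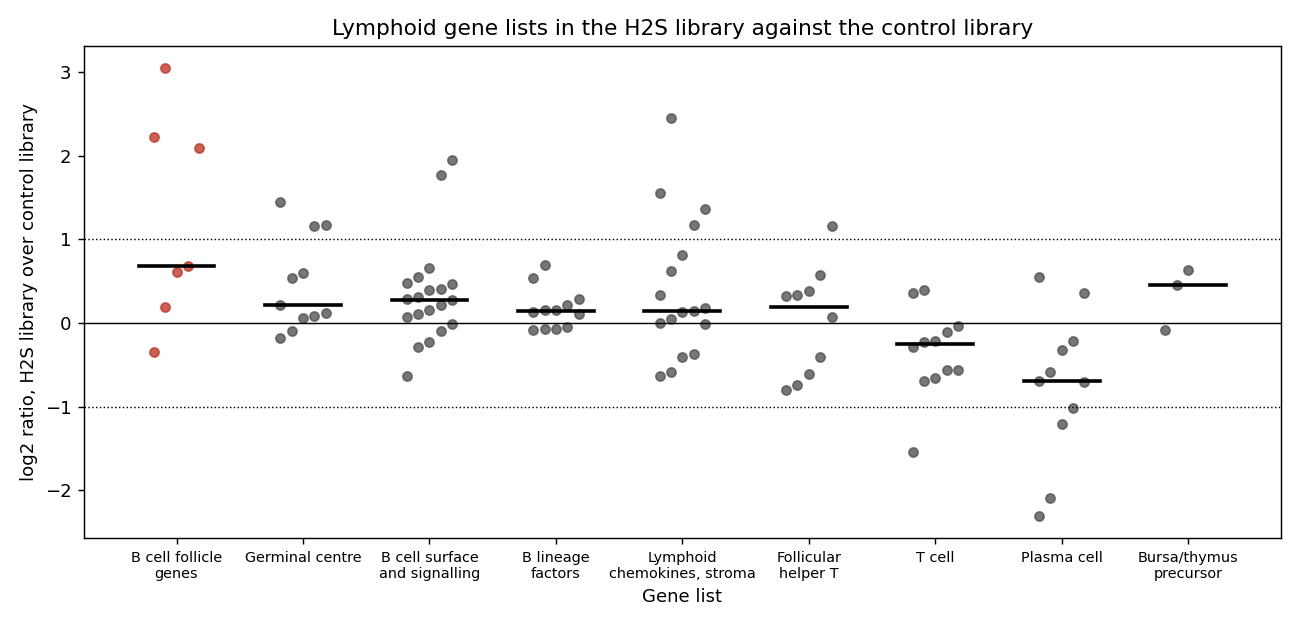
log2 ratio of the H2S library over the control library for each measured gene of the B cell follicle set (red) and of 8 lymphoid gene lists (grey), with a black bar at the median and dotted lines at a 2-fold difference. Among the sets drawn, the B cell follicle set has the highest median, at 0.68, and the plasma cell list the lowest, at -0.70. The B cell follicle genes were chosen with these ratios known, so their rank is not a result. Skeletal muscle markers, not drawn, had a median of 0.692.

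Of 9 listed genes of lymphocyte precursors, which would mark bursa or thymus in the sample, 3 were measured, with a median log2 ratio of 0.46 that turned to -0.080 with no count minimum beyond 1 count. IL7R, a cytokine receptor that mature T cells carry too, had 333 counts in H2S trachea and 330 in control trachea, and CD1C, a lipid-presenting protein, had 78 in H2S trachea and 47 in control trachea (ratio 1.56, 1.07 to 2.29). RAG1 had 5 counts in H2S trachea and 15 in control trachea, RAG2 had 13 in H2S trachea and 7 in control trachea, and DNTT had 22 in H2S trachea and 15 in control trachea (ratio 1.38, 0.682 to 2.85). DNTT reached the count minimum in the H2S library alone, and its log2 ratio is the median of the 3 measured genes. The thymus factor FOXN1 had 2 counts in H2S trachea and 5 in control trachea, and PTCRA had 0 in H2S trachea and 1 in control trachea. Markers of other tissues differed between the libraries too. All 9 cartilage markers were above a ratio of 1, and their levels summed to 23099 CPM in the H2S library against 18362 CPM in the control library. Skeletal muscle markers summed to 17963 CPM in the H2S library against 12268 CPM in the control library, with 7 of 8 above 1, and multiciliated epithelium markers to 707 CPM in the H2S library against 856 CPM in the control library, with 0 of 10 above 1. The part of these tissues in the ratios of the B cell follicle genes was not tested.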

How the data were processed

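Per the submitters' processing notes, mRNA reads were aligned with HISAT2. The sources used here do not name its version, a genome build, an annotation or a counting tool. The deposited table holds raw counts per gene for 1 H2S and 1 control library. The small RNA libraries of the series were not used here. TMM effective library sizes came from edgeR 4.0.16 (R 4.3.3). Intervals of ratios are exact Clopper-Pearson limits on the share of a gene's counts found in the H2S library, and those of levels are exact Poisson limits, from SciPy 1.17.1. Quotients of 2 genes have exact conditional odds ratio limits. Limits have a level of 95% and cover counting error only, since each group has 1 library. They treat reads as independent molecules, which reads are not, so they may be too narrow even for counting error. A count of 0 was set to a floor of 3, and no ratio was taken where both counts were at or under it. The interval calculation was tested on simulated data.

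The members and the 14 gene lists were chosen with earlier results of these data known, so lists are given as counts and medians with no test. The rule for naming took all members, up to 4 highest and 4 lowest measured genes of each list and a few fixed genes such as PRDM1. CCR7, FOXN1, PIGR, PTCRA, UNG and the neighbours named were chosen after their values were seen. Of 173 listed genes, 5 were found through RefSeq names and 21 were not analysed here. A few further genes were left out of the lists and are not reported here. Promoter motifs were planned and not searched, because no sequence was at hand. Alternatives were 4 other scalings, including DESeq2 1.42.0 size factors, 3 other count minimums, a fold of 1.5, and intervals wholly past 2-fold.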

Additional observations from a re-analysis of the deposited data

How the results depend on the processing

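The 7 member ratios stayed within their counting intervals under all 4 other scalings, with PAX5 at 4.12 to 4.30, VPREB3 at 7.97 to 8.33, CXCR5 at 4.51 to 4.71 and BLK at 0.757 to 0.791. The count of members at least 2-fold higher was 3 under every scaling and count minimum, and 5 with a fold of 1.5. The count minimums could not change it, because every member had at least 88 counts in 1 library. Another scaling multiplies all ratios by the same factor, so the scalings are not separate checks of each member. No member was at least 2-fold lower under any setting. Over all measured genes, 719 were higher and 566 lower by 2-fold. With a count minimum of 10, 999 were higher and 857 lower; with one of 50, 453 were higher and 342 lower; with none beyond 1 count, 1398 were higher and 1275 lower. A fold of 1.5 gave 1611 higher and 1422 lower, and intervals wholly past 2-fold gave 314 higher and 199 lower. The follicular helper T cell median turned to -0.17 with a count minimum of 50, and the lymphocyte precursor one to -0.080 with none beyond 1 count. Values compared were the counts and medians of the lists and the median of all measured genes. Of these 387, 360 changed little, some of them counts that stayed at 0. The fold of 1.5 and the interval rule leave medians unchanged by construction. Another scaling moves all medians by the same amount, so the medians are not separate checks of it. Part of the agreement was thus fixed in advance. The 10 counts of VPREB3 in the control library limit the precision of its ratio. No paired analysis was possible because each group has 1 mRNA library. One pair of libraries cannot show whether any of these differences recurs in other birds.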

Other observations

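Markers of macrophages and dendritic cells, neighbours of B cells in lymphoid tissue, were mostly lower in the H2S library. Of 9 measured genes, 3 were at least 2-fold lower and 1 was at least 2-fold higher, with a median log2 ratio of -0.51. With intervals wholly past 2-fold, 1 was lower and 1 higher. FLT3, a growth factor receptor of dendritic cell precursors, had 90 counts in H2S trachea and 245 in control trachea, a ratio of 0.345 (0.267 to 0.440). MARCO, a scavenger receptor of macrophages, was at 0.414 (0.298 to 0.570) and XCR1, a chemokine receptor of dendritic cells, at 0.475 (0.315 to 0.707). CD14 at 0.919 (0.691 to 1.22) and C1QB at 0.867 (0.742 to 1.01) had intervals that hold 1. The exception was TIMD4, a receptor for dying cells, with 280 counts in H2S trachea and 81 in control trachea (3.24, 2.52 to 4.20).

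Epithelial markers had a median log2 ratio of -0.04 over 9 measured genes, of which 4 had ratios above 1. TP63, the factor of basal epithelial cells, was at 0.490, while the basal keratin gene KRT5 was at 1.16 (1.07 to 1.26). The keratin genes KRT18, KRT8 and KRT19 were at 1.70, 0.898 and 0.718. Thyroid markers, which would mark neighbouring gland in the sample, had ratios of 0.738 for TG, 0.914 for FOXE1 and 1.13 for SLC5A5.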
